A study of Homo sapiens with 14 samples.

Results

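The genes described here are the human splicing factors and heterogeneous nuclear ribonucleoproteins (hnRNPs) that were picked by name from the table of expression levels: the SR proteins (SRSF), the hnRNPs (HNRNP), the subunits of splicing factors 3A and 3B (SF3A, SF3B), the proteins of the small nuclear ribonucleoprotein particles (SNRP) and the U2 auxiliary factors (U2AF). They were 60 of the 60707 rows, and names that end in P and digits, which mark pseudogenes, were left out. Of these 60 genes, 56 had 1 normalized FPKM or more in 2 or more of the 12 libraries with a replicate and were tested, among 13778 tested rows in all. FPKM are fragments scaled to transcript length and to the mapped fragments of the library, and normalized FPKM are the same values after the authors' scaling between libraries. The 4 genes that were not tested were SRSF12, HNRNPCL2, HNRNPCL3 and HNRNPCL4, whose highest levels were 0.00563, 0.207, 0.00983 and 0.0136 normalized FPKM.

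Introns are cut out of new transcripts by the spliceosome, which is built from small nuclear ribonucleoprotein particles (snRNPs), most of them an RNA on a ring of Sm proteins. The U1 particle binds the start of an intron, U2AF its end, and SF3A and SF3B hold the U2 particle at the branch point. SR proteins bind exons and mostly favour their use, while hnRNPs coat the transcript and often act against it. SF3B1, SRSF2 and U2AF1 are among the genes most often mutated in myelodysplastic syndromes. Levels of these mRNAs say nothing of how any transcript was spliced, and splicing itself was not analysed here.

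HL-60 is a line of human myeloid leukemia cells, PLB-985 a related one, and DMSO turns both into neutrophil-like cells. RNA of each line was sequenced in 3 states with 2 replicates. In one state the cells had been kept for 6 days in 1.3% DMSO with 9% fetal bovine serum (below "DMSO"), in another for 6 days in 1.3% DMSO with 2% Nutridoma, a serum substitute, and 0.5% serum (below "DMSO plus Nutridoma"), and in the third they were undifferentiated, in 9% serum. PLB-985 cells with DMSO plus Nutridoma had 1 more library each on day 2 and day 4, which entered no test. Nutridoma always came with less serum, so the effects of both cannot be told apart. The PLB-985 cells carried a fluorescent histone reporter (H2B-mCherry), and PLB-985 has been described as a subclone of HL-60, so that the reporter and the line cannot be told apart either. RNA was taken from whole cultures, in which fewer cells of a type and less RNA per cell cannot be told apart.

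The read depth of each library cannot be read from the tables, which give no counts. Markers matched the labels: all 6 genes of a neutrophil-like list were detected and summed to between 9240 and 20200 normalized FPKM in differentiated cells, against 203 to 490 in undifferentiated cells, while the erythroid markers were at 0 in every library. The 4 genes of a list of dividing cells summed to between 30.8 and 223 normalized FPKM in differentiated cells, against 336 to 465 in undifferentiated cells. The share of FPKM from mitochondrial genes also moved with differentiation, at 5.30% to 7.66% in differentiated day-6 libraries numbered 1, against 2.6% to 5.30% in undifferentiated ones, and at 10.07% to 14.2%, against 5.84% to 7.02%, in those numbered 2. Both moved with the falls given below, and their part in them was not tested. Replicates 1 and 2 also differed as whole sets. Rows of the 124 left-out pseudogene names summed to between 291 and 905 normalized FPKM in the libraries numbered 1 of the day-6 and undifferentiated groups and to between 102 and 315 in those numbered 2, and every comparison was therefore made with the replicate number as a block.

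Most splicing factor mRNAs fell when the cells were differentiated, in both lines and with both protocols. The largest falls were those of snRNP proteins, with mean folds over the 4 comparisons of 0.201 for SNRPD1, 0.202 for SNRPA and 0.203 for SNRPF, and many hnRNPs and SR proteins had mean folds under 0.5. SRSF4, SRSF5, SRSF8, HNRNPCL1 and SNRPN passed in none of the 4 comparisons, and HNRNPH2 rose. Of these, HNRNPCL1 was near the floor in every library. All 60 genes together summed to 6527 and 6019 normalized FPKM in DMSO-treated PLB-985 cells and 6121 and 5941 with DMSO plus Nutridoma, against 12951 and 12857 in undifferentiated PLB-985 cells. In HL-60 cells they summed to 5763 and 5553 with DMSO and 5847 and 6273 with DMSO plus Nutridoma, against 12187 and 13061 undifferentiated. The groups did not overlap, and each differentiated group had between 44.8% and 48.6% of the sum of its own undifferentiated cells.

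With DMSO, 44 of the 56 tested genes were lower in PLB-985 cells than in undifferentiated cells, where 35.8% of all tested rows were lower, and 2 were higher, where 24.6% of all rows were (limma, adjusted p under 0.05). HL-60 cells with DMSO had 47 lower and 2 higher, against 34.7% and 26% of all rows. With DMSO plus Nutridoma, 46 were lower and 1 higher in PLB-985 cells, against 35.8% and 24% of all rows, and 47 were lower and 1 higher in HL-60 cells, against 33.6% and 25.5% of all rows. The median log2 fold change of the 56 genes was −1.11 for PLB-985 cells with DMSO, −1.20 for HL-60 cells with DMSO, −1.05 for PLB-985 cells with DMSO plus Nutridoma and −1.04 for HL-60 cells with DMSO plus Nutridoma. Over all tested rows the medians were −0.15, −0.11, −0.16 and −0.12 in the same order. These 4 comparisons are not independent, since both protocols of a line share the undifferentiated cells.

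Of the 56 genes, 42 were lower in all 4 comparisons and 32 of these had a mean log2 fold change of −1 or less. The share of all tested rows that were lower in all 4 was not counted. It cannot exceed 33.6%, the share in HL-60 cells with DMSO plus Nutridoma. HNRNPH2 alone was higher in all 4, SF3B1 was higher with DMSO in both lines, 7 genes were lower in 1 to 3 of the comparisons, and 5 passed in none (SRSF4, SRSF5, SRSF8, HNRNPCL1 and SNRPN). HNRNPCL1 reached 1 normalized FPKM only in replicate 1 of undifferentiated PLB-985 and HL-60 cells (1.52 and 1.41). In the replicate 2 libraries it was between 0.0242 and 0.224. Within each replicate number HNRNPCL1 was lower in all 4 comparisons, and the constant added before the logarithm makes such falls small. Counted within each replicate number, 49 genes were lower in both replicates in PLB-985 cells with DMSO, 51 in HL-60 cells with DMSO, 51 in PLB-985 cells with DMSO plus Nutridoma and 52 in HL-60 cells with DMSO plus Nutridoma. All tested rows were not counted in this way. Their fitted log2 fold change was negative for 56.6%, 54.5%, 57.0% and 55.3% in the same order. On the FPKM as deposited, without the authors' scaling, the median of all rows was −0.03, 0.03, −0.01 and −0.07 in the order above, and the genes here that were lower numbered 36, 41, 40 and 46. Without that scaling, 48.2%, 52.2%, 49.7% and 46.2% of all called rows were higher, against 40.8%, 42.8%, 40.1% and 43.2% with it. The genes that lost a call as lower in 1 or more of the comparisons, without that scaling or under median-of-ratios scaling, were SRSF6, SRSF9, SRSF11, HNRNPK, HNRNPL, HNRNPLL, HNRNPUL1, HNRNPUL2, SF3A1, SF3B2, SF3B4, SNRPB2 and U2AF2.

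**Figure D1:**
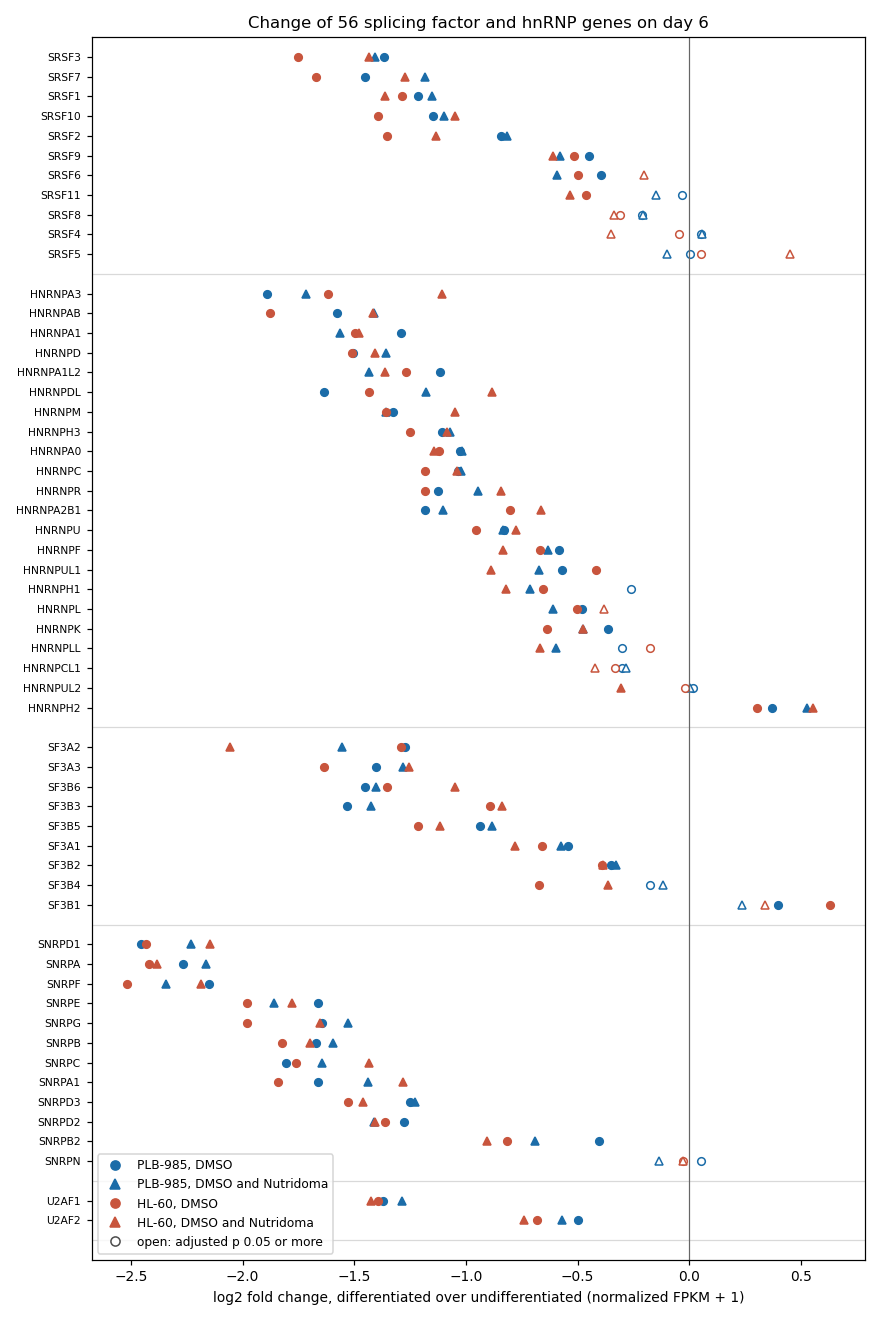
Log2 fold change of the normalized FPKM plus 1, differentiated over undifferentiated, for each of the 56 tested genes in the 4 day-6 comparisons, with genes grouped by family and sorted by their mean change. Blue marks PLB-985 and red HL-60, circles DMSO and triangles DMSO plus Nutridoma, and open symbols an adjusted p of 0.05 or more; SNRPD1, SNRPA and SNRPF lie beyond −2 in all 4 comparisons and HNRNPH2 is right of 0 in all 4.

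The promoters of genes that moved together or stood apart are shown first, to let their letters be compared. Promoter sequences were taken from RefSeq (GRCh38.p14) as the 250 bases before each annotated start, in which 3 motifs were searched on both strands: TTCCGG, which reads CCGGAA on the other strand and is the core of ETS-type sites, CACGTG, which is the E-box of MYC and its relatives, and TATAAA, which reads TTTATA on the other strand and is the TATA box. A promoter entry was found for 55 of the 60 genes, and not for SF3B3, SNRPD1, HNRNPA1, SRSF2 and HNRNPCL3. Only the stretch of each window that no annotated exon touches is printed, 5′ to 3′ on the gene's own strand, with every motif in capitals. SNRPF has none in its stretch. SNRPF, SNRPC, SNRPG and SNRPA1 stand for the snRNP genes, whose falls were the largest.
SNRPF, chr12:95858840-95858951, plus strand: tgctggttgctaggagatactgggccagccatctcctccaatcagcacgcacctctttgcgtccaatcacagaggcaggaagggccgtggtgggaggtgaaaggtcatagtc
SNRPC, chr6:34757255-34757504, plus strand: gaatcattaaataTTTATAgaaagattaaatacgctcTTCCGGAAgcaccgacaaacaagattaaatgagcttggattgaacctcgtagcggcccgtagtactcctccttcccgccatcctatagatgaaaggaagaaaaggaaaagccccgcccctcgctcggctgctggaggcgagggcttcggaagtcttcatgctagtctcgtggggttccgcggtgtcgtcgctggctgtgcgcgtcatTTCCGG
SNRPG, chr2:70293459-70293617, minus strand: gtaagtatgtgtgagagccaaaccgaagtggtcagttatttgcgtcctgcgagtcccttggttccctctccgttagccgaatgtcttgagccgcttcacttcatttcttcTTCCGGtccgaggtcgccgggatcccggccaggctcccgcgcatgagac
SNRPA1, chr15:101295283-101295418, minus strand: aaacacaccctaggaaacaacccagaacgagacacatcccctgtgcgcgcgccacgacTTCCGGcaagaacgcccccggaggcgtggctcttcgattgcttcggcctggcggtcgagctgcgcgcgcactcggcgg

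SF3A3, which fell, and SF3B1, which did not, are subunits that meet in the same U2 particle, and their promoters are set side by side for that reason. HNRNPH2 is shown as the gene that rose in all 4 comparisons, and HNRNPDL as a gene with the same CACGTG motif that fell in all 4.
SF3A3, chr1:37990076-37990272, minus strand: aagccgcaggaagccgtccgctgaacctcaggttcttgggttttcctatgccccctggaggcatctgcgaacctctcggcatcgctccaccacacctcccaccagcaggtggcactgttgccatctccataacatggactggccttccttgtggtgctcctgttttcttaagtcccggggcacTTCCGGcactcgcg
SF3B1, chr2:197435094-197435343, minus strand: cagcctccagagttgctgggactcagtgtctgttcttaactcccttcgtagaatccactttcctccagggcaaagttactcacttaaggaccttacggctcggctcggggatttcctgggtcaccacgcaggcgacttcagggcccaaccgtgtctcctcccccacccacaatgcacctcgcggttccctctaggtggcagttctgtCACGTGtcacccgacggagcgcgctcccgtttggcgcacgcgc
HNRNPH2, chrX:101408013-101408221, plus strand: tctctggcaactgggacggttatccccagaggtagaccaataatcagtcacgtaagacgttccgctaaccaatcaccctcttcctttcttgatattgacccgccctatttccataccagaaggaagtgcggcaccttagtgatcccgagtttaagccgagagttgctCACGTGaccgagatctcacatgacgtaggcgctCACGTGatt
HNRNPDL, chr4:82430463-82430589, minus strand: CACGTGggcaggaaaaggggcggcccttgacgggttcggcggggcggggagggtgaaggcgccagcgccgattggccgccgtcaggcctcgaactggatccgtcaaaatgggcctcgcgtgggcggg

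Counted over the whole 250 bases and all starts of a gene, TTCCGG was present for 24 of the 52 tested genes with a promoter (46.2%), against 32.1% of the 9267 tested genes with a promoter and 17.2% of all 27305 genes in the promoter table. By family it was present for 9 of 11 snRNP genes and 6 of 8 SF3 genes, 1 of 2 U2AF genes, 6 of 21 hnRNP genes and 2 of 10 SR genes. The snRNP genes without it were SNRPA and SNRPF, with mean log2 fold changes of −2.31 and −2.30, the largest falls among the snRNP genes with a promoter. The SR genes with it were SRSF4 and SRSF5, which did not pass in any comparison with undifferentiated cells, and SNRPN also held it. CACGTG was present for 7 of the 52 genes (13.5%), against 11.7% of the tested genes and 7.73% of all, and 6 of these 7 were hnRNPs. TATAAA was present for 7 as well, against 7.72% of the tested genes and 13% of all. A match describes the letters of the window only, and no test was made of it.

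The snRNP proteins had the largest falls. All except SNRPN, 11 of 12, were lower in each of the 4 comparisons, where 33.6% to 35.8% of all tested rows were. The medians of their log2 fold change were −1.66 for PLB-985 cells with DMSO, −1.83 for HL-60 cells with DMSO, −1.56 for PLB-985 cells with DMSO plus Nutridoma and −1.56 for HL-60 cells with DMSO plus Nutridoma, SNRPN included. Their summed level was 770 ± 43.2 normalized FPKM in DMSO-treated PLB-985 cells and 773 ± 1.00 with DMSO plus Nutridoma, against 2397 ± 5.80 in undifferentiated PLB-985 cells (SD, n = 2 each). HL-60 cells summed to 648 ± 34.3 with DMSO and 727 ± 50.7 with DMSO plus Nutridoma, against 2422 ± 511 undifferentiated (SD, n = 2 each). Within the sum over all 60 genes, snRNP proteins took between 11.2% and 13% in the day-6 libraries, against 16.9% to 21.3% in the undifferentiated ones.

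SNRPD1, a protein of the Sm ring (chr18:21612314-21633524, GRCh38), was at 87.2 and 49.8 normalized FPKM in DMSO-treated PLB-985 cells and 91.0 and 65.6 with DMSO plus Nutridoma, against 441 and 304 undifferentiated. SNRPD1 in HL-60 cells was at 74.1 and 46.9 with DMSO and 73.8 and 70.2 with DMSO plus Nutridoma, against 343 and 303 undifferentiated. No differentiated library came near an undifferentiated one, and the log2 fold changes lay between −2.46 and −2.15 (SE 0.18, limma adjusted p at most 3.6e-05). SNRPA, the U1 particle's protein A (chr19:40750637-40765389), was at 59.0 and 46.5 normalized FPKM in DMSO-treated PLB-985 cells and 62.0 and 51.1 with DMSO plus Nutridoma, against 252 and 259 undifferentiated. SNRPA in HL-60 cells was at 50.0 and 50.7 with DMSO and 51.7 and 51.7 with DMSO plus Nutridoma, against 266 and 283 undifferentiated. Replicates lay close together and groups far apart, with log2 fold changes between −2.42 and −2.16 (SE 0.13, adjusted p at most 1.3e-05). SNRPF, another protein of the Sm ring (chr12:95858952-95903828), was at 18.5 and 15.6 normalized FPKM in DMSO-treated PLB-985 cells and 14.2 and 15.3 with DMSO plus Nutridoma, against 78.7 and 78.9 undifferentiated. SNRPF in HL-60 cells was at 15.1 and 12.8 with DMSO and 16.97 and 18.6 with DMSO plus Nutridoma, against 68.0 and 104 undifferentiated. The groups were again apart (log2 fold changes between −2.52 and −2.15, SE 0.19, adjusted p at most 5.4e-05).

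**Figure D2:**
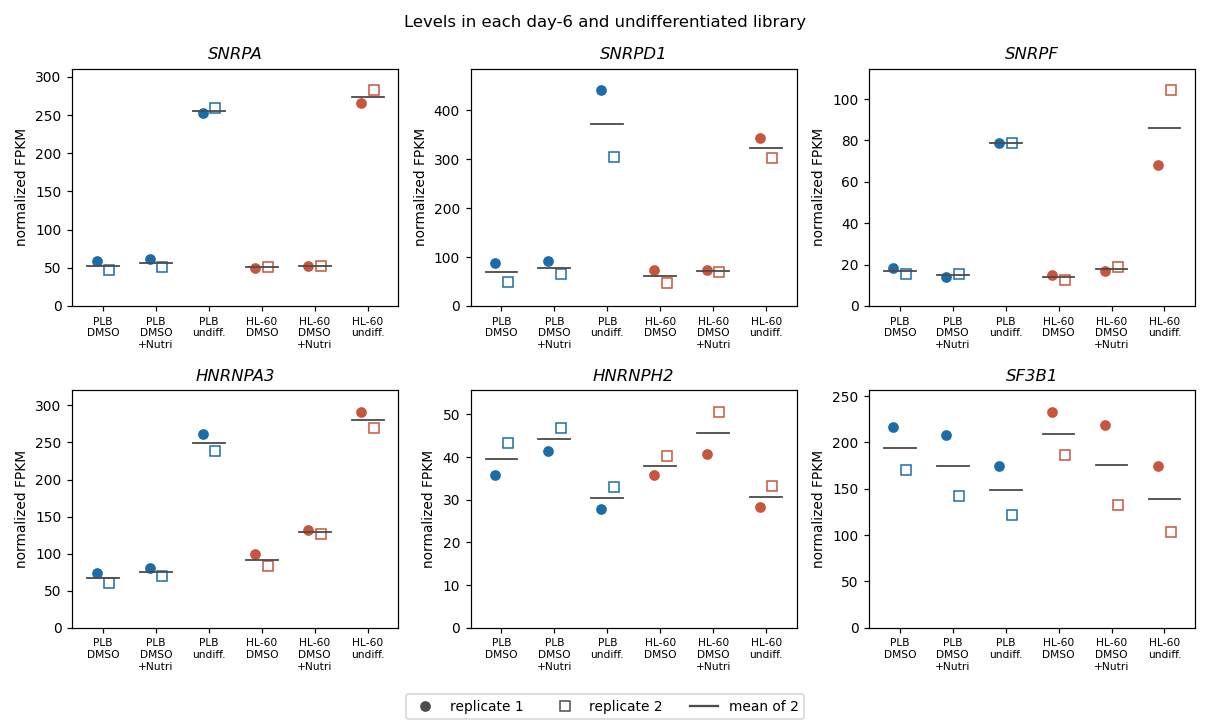
Normalized FPKM of 6 genes in each day-6 and undifferentiated library, on axes that start at 0, with replicate 1 as filled circles, replicate 2 as open squares, the mean of 2 as a line, PLB-985 in blue and HL-60 in red. SNRPA, SNRPD1, SNRPF and HNRNPA3 are high in undifferentiated cells only, HNRNPH2 is lowest there, and SF3B1 differs as much between replicates as between states.

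The other Sm proteins SNRPE, SNRPG, SNRPB, SNRPD3 and SNRPD2 had mean log2 fold changes over the 4 comparisons of −1.82, −1.70, −1.70, −1.37 and −1.36, and SNRPC, a U1 protein, had −1.66. SNRPA1, the U2 particle's protein A′, was at 20.8 and 21.7 normalized FPKM in DMSO-treated PLB-985 cells and 24.8 and 25.0 with DMSO plus Nutridoma, against 66.4 and 72.5 undifferentiated. SNRPA1 in HL-60 cells was at 20.3 and 17.2 with DMSO and 27.2 and 29.0 with DMSO plus Nutridoma, against 62.4 and 77.7 undifferentiated. Its log2 fold changes lay between −1.84 and −1.28, and groups did not overlap. SNRPB2, the U2 particle's protein B″ and the partner of SNRPA1, fell least among those that passed. SNRPB2 was at 43.6 and 42.8 normalized FPKM in DMSO-treated PLB-985 cells and 33.4 and 37.2 with DMSO plus Nutridoma, against 55.4 and 59.8 undifferentiated. SNRPB2 in HL-60 cells was at 43.4 and 40.1 with DMSO and 34.8 and 44.2 with DMSO plus Nutridoma, against 63.5 and 86.8 undifferentiated. Its log2 fold change was −0.41 in PLB-985 cells with DMSO (SE 0.15, limma adjusted p = 0.041) and between −0.90 and −0.69 in the other 3 comparisons, and the first of these calls was lost in 11 of 21 alternatives.

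SNRPN, a close relative of the Sm protein SNRPB that is made from an imprinted locus (chr15:24823637-24978723), was the exception. SNRPN was at 42.0 and 41.4 normalized FPKM in DMSO-treated PLB-985 cells and 35.3 and 37.8 with DMSO plus Nutridoma, against 38.8 and 41.6 undifferentiated. In all HL-60 libraries it was at or near 0, with 0 and 0 with DMSO, 0 and 0.00012 with DMSO plus Nutridoma, and 0 and 0.0376 undifferentiated. It thus did not pass against undifferentiated cells in either line, though in HL-60 cells no fall could have been seen. PLB-985 was far above HL-60 in every state (limma adjusted p = 3.1e-07 with DMSO, 4.1e-07 with DMSO plus Nutridoma and 3.5e-07 undifferentiated). The fitted size of that difference depends on the constant added before the logarithm, and no fold is given against libraries listed at 0. Among the genes here with a median of at least 20 FPKM, SNRPN was the only one listed at 0 in any library.

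Genes that overlap SNRPN on the same strand showed the same split between the lines. SNURF, which shares transcripts with SNRPN, was between 11.4 and 22.8 normalized FPKM in the 6 replicated PLB-985 libraries, against 0 in 4 HL-60 libraries and 0.0690 and 0.0259 in the HL-60 libraries of replicate 2 with DMSO plus Nutridoma and undifferentiated. SNHG14, a long noncoding RNA that runs on from this locus, was at 3.44 and 2.59 normalized FPKM in DMSO-treated PLB-985 cells and 2.33 and 1.89 with DMSO plus Nutridoma, against 8.67 and 8.77 undifferentiated. In HL-60 cells SNHG14 was listed at 0 in all 6 libraries. How reads were shared out between SNRPN and SNURF is set by the authors' quantification and cannot be told from the tables. The RefSeq table lists 4 starts for SNRPN, and start 3, the one with a TTCCGG motif, is printed to show a promoter from this locus.
SNRPN, start 3, chr15:24954737-24954934, plus strand: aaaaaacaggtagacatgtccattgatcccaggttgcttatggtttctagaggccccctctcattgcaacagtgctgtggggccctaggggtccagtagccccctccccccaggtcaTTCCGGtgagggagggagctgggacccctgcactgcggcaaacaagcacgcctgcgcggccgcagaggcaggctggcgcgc

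**Figure D3:**
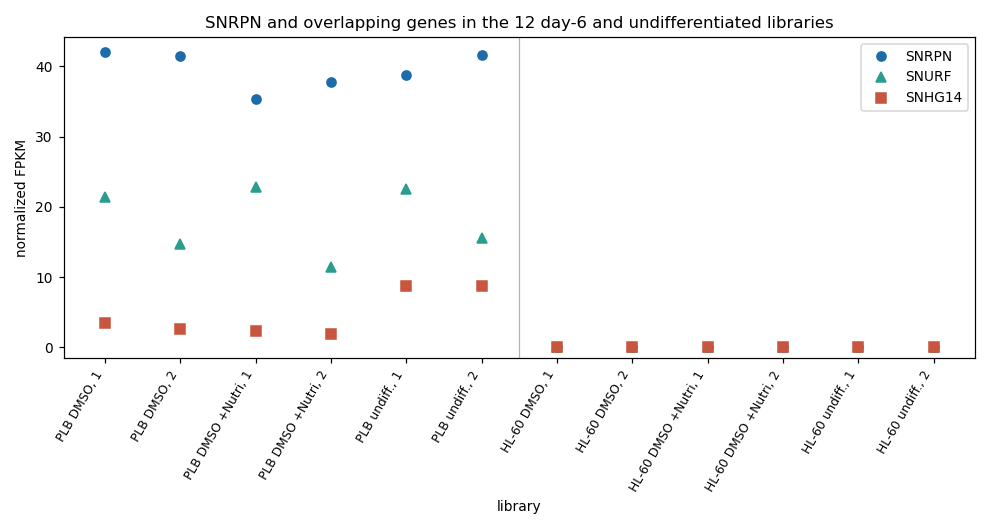
Normalized FPKM of SNRPN (circles), SNURF (triangles) and SNHG14 (squares) in the 12 day-6 and undifferentiated libraries, PLB-985 left of the line and HL-60 right of it. SNRPN is between 35.3 and 42.0 in PLB-985 cells, and in HL-60 cells all 3 genes lie at or near 0, where their symbols cover each other.

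Among the hnRNPs, 17 of 22 tested genes were lower in PLB-985 cells with DMSO, 18 in HL-60 cells with DMSO, and 19 with DMSO plus Nutridoma in each line. Of all tested rows, 35.8% and 34.7% were lower with DMSO in PLB-985 and HL-60 cells, and 35.8% and 33.6% with DMSO plus Nutridoma. The summed level of the hnRNPs was 3733 ± 179 normalized FPKM in DMSO-treated PLB-985 cells and 3519.9 ± 3.39 with DMSO plus Nutridoma, against 7507 ± 90.6 in undifferentiated PLB-985 cells (SD, n = 2 each). HL-60 cells summed to 3379.6 ± 31.4 with DMSO and 3608 ± 351 with DMSO plus Nutridoma, against 7245 ± 44.4 undifferentiated (SD, n = 2 each). The 3 most abundant genes of all, with means over the libraries of 1065, 484 and 444 normalized FPKM, were HNRNPA1, HNRNPA2B1 and HNRNPH1.

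HNRNPA1, which binds exonic silencers and shuttles with mRNA to the cytoplasm, was at 763 and 803 normalized FPKM in DMSO-treated PLB-985 cells and 589.7 and 708 with DMSO plus Nutridoma, against 1772 and 2070.4 undifferentiated. HNRNPA1 in HL-60 cells was at 602 and 734 with DMSO and 601 and 753 with DMSO plus Nutridoma, against 2048 and 1720.1 undifferentiated. The groups were well apart (log2 fold changes between −1.57 and −1.29, SE 0.15, limma adjusted p at most 0.0002). Its many pseudogenes make this level uncertain, since 75 rows named as HNRNPA1 pseudogenes summed to between 185 and 672 normalized FPKM in replicate 1 and to between 76.1 and 241 in replicate 2. HNRNPA2B1, its close relative, was at 372 and 335 normalized FPKM in DMSO-treated PLB-985 cells and 387 and 361 with DMSO plus Nutridoma, against 799 and 807 undifferentiated. HNRNPA2B1 in HL-60 cells was at 359 and 369.7 with DMSO and 355 and 452 with DMSO plus Nutridoma, against 575 and 702 undifferentiated. It fell in both lines (log2 fold changes between −1.18 and −0.67, adjusted p at most 0.0046). HNRNPH1, which binds runs of G, was at 461 and 404 normalized FPKM in DMSO-treated PLB-985 cells and 329 and 301 with DMSO plus Nutridoma, against 559 and 478 undifferentiated. HNRNPH1 in HL-60 cells was at 424 and 411 with DMSO and 348 and 397 with DMSO plus Nutridoma, against 764 and 565 undifferentiated. It passed in all comparisons except PLB-985 cells with DMSO, where the log2 fold change was −0.26 (SE 0.15, adjusted p = 0.16).

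The largest mean falls among the hnRNPs were those of HNRNPA3 and HNRNPAB, both RNA-binding proteins of the A/B type. HNRNPA3 was at 74.0 and 59.8 normalized FPKM in DMSO-treated PLB-985 cells and 80.8 and 69.9 with DMSO plus Nutridoma, against 261 and 238 undifferentiated. HNRNPA3 in HL-60 cells was at 98.9 and 83.1 with DMSO and 132 and 127 with DMSO plus Nutridoma, against 291 and 269.7 undifferentiated. Every differentiated library was below every undifferentiated one (log2 fold changes between −1.89 and −1.11, SE 0.10, limma adjusted p at most 5e-05). HNRNPAB was at 55.8 and 56.4 normalized FPKM in DMSO-treated PLB-985 cells and 53.1 and 74.7 with DMSO plus Nutridoma, against 155 and 184 undifferentiated. HNRNPAB in HL-60 cells was at 59.9 and 71.9 with DMSO and 72.9 and 113 with DMSO plus Nutridoma, against 211 and 281 undifferentiated. Replicate 2 was the higher in each of these HNRNPAB groups, and the groups stayed apart (log2 fold changes between −1.88 and −1.41, adjusted p at most 0.0001). HNRNPD, which binds AU-rich elements of short-lived mRNAs, HNRNPM, and HNRNPC, which binds runs of U, had mean log2 fold changes of −1.44, −1.27 and −1.07, and HNRNPK, which binds runs of C, had −0.49. Pseudogenes make the levels of HNRNPA3 and HNRNPC uncertain too. In replicates 1 and 2 of undifferentiated PLB-985 cells, rows named as HNRNPA3 pseudogenes summed to 100 and 46.2 normalized FPKM. Those named as HNRNPC pseudogenes summed to 103 and 18.1.

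HNRNPH2, a near relative of HNRNPH1 on the X chromosome (chrX:101408222-101414133), was the hnRNP that rose. HNRNPH2 was at 35.9 and 43.3 normalized FPKM in DMSO-treated PLB-985 cells and 41.5 and 46.9 with DMSO plus Nutridoma, against 27.8 and 32.9 undifferentiated. HNRNPH2 in HL-60 cells was at 35.7 and 40.3 with DMSO and 40.8 and 50.6 with DMSO plus Nutridoma, against 28.3 and 33.1 undifferentiated. No differentiated library was as low as an undifferentiated one. The log2 fold changes were 0.37 and 0.30 with DMSO in PLB-985 and HL-60 cells and 0.53 and 0.56 with DMSO plus Nutridoma (SE 0.09, limma adjusted p = 0.008, 0.02, 0.0014 and 0.0011). Both calls with DMSO were lost without the replicate block. They were also lost without replicate 1 of undifferentiated PLB-985 cells or replicate 2 of PLB-985 cells with DMSO in the first line, and without either replicate of HL-60 cells with DMSO in the other. A readthrough gene on the same strand, RPL36A-HNRNPH2, had up to 10.03 FPKM, and reads may be shared with it. As a ratio, HNRNPH2 over HNRNPH1 was between 0.0779 and 0.156 in the day-6 libraries, against 0.0370 to 0.0689 in the undifferentiated ones.

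HNRNPUL2, a relative of the nuclear matrix protein HNRNPU, passed in 1 comparison only. HNRNPUL2 was at 30.6 and 32.9 normalized FPKM in DMSO-treated PLB-985 cells and 29.9 and 33.1 with DMSO plus Nutridoma, against 29.6 and 33.2 undifferentiated. HNRNPUL2 in HL-60 cells was at 36.6 and 40.4 with DMSO and 32.1 and 30.6 with DMSO plus Nutridoma, against 37.4 and 40.7 undifferentiated. Only the last protocol of HL-60 cells was apart from the undifferentiated cells (log2 fold change −0.31, SE 0.10, limma adjusted p = 0.027), and this call was lost on the FPKM as deposited (−0.26) and under median-of-ratios scaling (−0.19). HNRNPLL, known for its part in the switch of CD45 isoforms in lymphocytes, passed only with DMSO plus Nutridoma. HNRNPLL was at 15.05 and 14.7 normalized FPKM in DMSO-treated PLB-985 cells and 12.9 and 10.99 with DMSO plus Nutridoma, against 17.4 and 19.8 undifferentiated. HNRNPLL in HL-60 cells was at 13.8 and 13.01 with DMSO and 10.1 and 8.37 with DMSO plus Nutridoma, against 14.4 and 16.2 undifferentiated. Its log2 fold changes with DMSO plus Nutridoma were −0.60 for PLB-985 and −0.67 for HL-60 cells (SE 0.14, adjusted p = 0.0065 and 0.0037), and with DMSO −0.30 and −0.18 (adjusted p = 0.095 and 0.3). The call of HNRNPLL in PLB-985 cells was lost on the FPKM as deposited (−0.42).

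The SF3 subunits moved unequally. SF3A2, SF3A3, SF3B3, SF3B5, SF3B6, SF3A1 and SF3B2 were lower in all 4 comparisons, SF3B4 only in HL-60 cells, and SF3B1 in none. SF3A2, which binds near the branch point, was at 62.8 and 44.4 normalized FPKM in DMSO-treated PLB-985 cells and 51.7 and 36.3 with DMSO plus Nutridoma, against 146 and 114 undifferentiated. SF3A2 in HL-60 cells was at 51.3 and 45.1 with DMSO and 36.0 and 21.5 with DMSO plus Nutridoma, against 143 and 98.9 undifferentiated. The groups were apart, replicate 1 was the higher in each, and the log2 fold changes lay between −2.06 and −1.27 (SE 0.13, limma adjusted p at most 0.0001). SF3A3, which acts with SF3A2, was at 96.5 and 67.4 normalized FPKM in DMSO-treated PLB-985 cells and 98.5 and 78.3 with DMSO plus Nutridoma, against 259.9 and 178 undifferentiated. SF3A3 in HL-60 cells was at 88.6 and 67.1 with DMSO and 120.5 and 83.9 with DMSO plus Nutridoma, against 267 and 218 undifferentiated. Here too no differentiated library reached an undifferentiated one (log2 fold changes between −1.63 and −1.26, adjusted p at most 3.5e-05).

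SF3B1, the largest subunit, which clamps the branch point (chr2:197388515-197435079), was at 217 and 171 normalized FPKM in DMSO-treated PLB-985 cells and 208 and 142 with DMSO plus Nutridoma, against 175 and 122 undifferentiated. SF3B1 in HL-60 cells was at 233 and 186 with DMSO and 219 and 132 with DMSO plus Nutridoma, against 175 and 103 undifferentiated. Replicate 1 was the higher in every group, so that groups overlapped under both protocols in PLB-985 and under DMSO plus Nutridoma in HL-60 cells, but within each replicate number every differentiated library was above its undifferentiated one. The log2 fold changes were 0.40 and 0.63 with DMSO in PLB-985 and HL-60 cells (SE 0.13, limma adjusted p = 0.031 and 0.0038) and 0.24 and 0.34 with DMSO plus Nutridoma (adjusted p = 0.16 and 0.055). With DMSO plus Nutridoma SF3B1 passed as higher under both other scalings, with log2 fold changes of 0.43 for PLB-985 and 0.39 for HL-60 cells on the FPKM as deposited and 0.37 and 0.46 under median-of-ratios scaling. Without the replicate block neither DMSO call held, and the call in PLB-985 cells was also lost without any 1 of 5 PLB-985 libraries (both undifferentiated ones, both with DMSO plus Nutridoma, and replicate 2 with DMSO).

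SF3B3, a scaffold subunit in contact with SF3B1, went the other way. SF3B3 was at 85.8 and 91.9 normalized FPKM in DMSO-treated PLB-985 cells and 88.7 and 104 with DMSO plus Nutridoma, against 242 and 277 undifferentiated. SF3B3 in HL-60 cells was at 94.1 and 89.2 with DMSO and 97.8 and 92.7 with DMSO plus Nutridoma, against 147 and 199 undifferentiated. The ratio of SF3B1 over SF3B3, 2 mRNAs compared per length, was between 1.37 and 2.53 in the day-6 libraries, against 0.440 to 1.19 in the undifferentiated ones. SF3B4, an RNA-binding subunit that touches the intron upstream of the branch point, was at 69.1 and 75.4 normalized FPKM in DMSO-treated PLB-985 cells and 72.8 and 77.3 with DMSO plus Nutridoma, against 78.7 and 84.7 undifferentiated. SF3B4 in HL-60 cells was at 37.6 and 43.4 with DMSO and 45.9 and 55.3 with DMSO plus Nutridoma, against 58.5 and 72.3 undifferentiated. It passed in HL-60 cells (log2 fold changes −0.67 and −0.36, limma adjusted p = 0.00056 and 0.013) and not in PLB-985 cells (−0.17 and −0.12, adjusted p = 0.15 and 0.32), and the gap between both lines in this response to DMSO did not pass (0.50, SE 0.14, adjusted p = 0.17). The call of SF3B4 in HL-60 cells with DMSO plus Nutridoma was lost under median-of-ratios scaling (−0.24).

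U2AF1, the small subunit that reads the AG at the end of the intron, was at 30.7 and 28.0 normalized FPKM in DMSO-treated PLB-985 cells and 33.5 and 28.9 with DMSO plus Nutridoma, against 81.8 and 73.4 undifferentiated. U2AF1 in HL-60 cells was at 37.0 and 32.6 with DMSO and 33.0 and 35.1 with DMSO plus Nutridoma, against 82.2 and 105 undifferentiated. The groups were apart, with log2 fold changes between −1.42 and −1.29 (SE 0.15, limma adjusted p at most 0.00018). U2AF2, the large subunit that binds the run of pyrimidines before it, was at 88.8 and 69.0 normalized FPKM in DMSO-treated PLB-985 cells and 82.1 and 67.7 with DMSO plus Nutridoma, against 119 and 104 undifferentiated. U2AF2 in HL-60 cells was at 73.7 and 65.7 with DMSO and 78.3 and 57.1 with DMSO plus Nutridoma, against 116 and 109 undifferentiated. It fell less, by log2 values between −0.74 and −0.50 (SE 0.11, adjusted p at most 0.0052). The ratio of U2AF2 over U2AF1, subunits of 1 dimer, was between 1.63 and 2.89 in the day-6 libraries, against 1.03 to 1.45 in the undifferentiated ones.

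The SR proteins split into genes that fell and genes that did not. SRSF1, SRSF2, SRSF3, SRSF7, SRSF9 and SRSF10 were lower in all 4 comparisons, SRSF6 in 3, SRSF11 in HL-60 cells only, and SRSF4, SRSF5 and SRSF8 in none. SRSF3, the smallest SR protein, which also helps to export mRNA, was at 100.2 and 112 normalized FPKM in DMSO-treated PLB-985 cells and 93.2 and 114 with DMSO plus Nutridoma, against 258 and 292 undifferentiated. SRSF3 in HL-60 cells was at 76.7 and 91.4 with DMSO and 97.8 and 112 with DMSO plus Nutridoma, against 258 and 314 undifferentiated. The groups were apart (log2 fold changes between −1.75 and −1.36, SE 0.09, limma adjusted p at most 1.5e-05). SRSF7, its close relative with a zinc knuckle, was at 41.9 and 46.0 normalized FPKM in DMSO-treated PLB-985 cells and 49.6 and 56.7 with DMSO plus Nutridoma, against 125 and 118 undifferentiated. SRSF7 in HL-60 cells was at 39.4 and 47.1 with DMSO and 59.0 and 55.4 with DMSO plus Nutridoma, against 133 and 146 undifferentiated. Again no library of one state reached into the other (log2 fold changes between −1.67 and −1.18, SE 0.11, adjusted p at most 8e-05). SRSF1, SRSF10 and SRSF2 had mean log2 fold changes of −1.25, −1.17 and −1.04, and SRSF9, which overlaps the abundant DYNLL1 on the other strand, had −0.54.

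SRSF5, an SR protein with a pair of RNA recognition motifs, was the most abundant of the family in differentiated cells. SRSF5 was at 216 and 143 normalized FPKM in DMSO-treated PLB-985 cells and 191 and 140.2 with DMSO plus Nutridoma, against 201 and 153 undifferentiated. SRSF5 in HL-60 cells was at 177 and 158 with DMSO and 199 and 244 with DMSO plus Nutridoma, against 173 and 150.0 undifferentiated. These groups overlapped in PLB-985 cells and in HL-60 cells with DMSO, and the log2 fold changes lay between −0.10 and 0.45 (SE 0.19, limma adjusted p at least 0.076). SRSF4, the longest of the family's classical members, was at 46.7 and 58.5 normalized FPKM in DMSO-treated PLB-985 cells and 47.4 and 58.0 with DMSO plus Nutridoma, against 44.2 and 57.2 undifferentiated. SRSF4 in HL-60 cells was at 49.9 and 53.5 with DMSO and 41.0 and 42.2 with DMSO plus Nutridoma, against 42.0 and 67.7 undifferentiated. Its log2 fold changes lay between −0.35 and 0.06 (SE 0.15, adjusted p at least 0.08). The ratio of SRSF5 over SRSF3, compared per length, was between 1.23 and 2.31 in the day-6 libraries, against 0.478 to 0.777 in the undifferentiated ones. Under the other scalings of the libraries, the sign turned for SRSF4 in HL-60 cells with DMSO, SRSF5 in PLB-985 cells with DMSO plus Nutridoma, and SRSF11 in PLB-985 cells, none of which passed under any of them. SRSF5 in HL-60 cells with DMSO plus Nutridoma passed as higher under both, with log2 fold changes of 0.51 on the FPKM as deposited and 0.57 under median-of-ratios scaling.

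SRSF11, an SR-related protein, was at 95.5 and 95.9 normalized FPKM in DMSO-treated PLB-985 cells and 97.7 and 80.0 with DMSO plus Nutridoma, against 101.1 and 95.1 undifferentiated. SRSF11 in HL-60 cells was at 69.1 and 67.1 with DMSO and 69.6 and 59.99 with DMSO plus Nutridoma, against 105 and 84.1 undifferentiated. The HL-60 groups were apart (log2 fold changes −0.46 and −0.53, SE 0.11, limma adjusted p = 0.0078 and 0.0039), while those of PLB-985 with DMSO overlapped (−0.03, adjusted p = 0.82). On the FPKM as deposited, the HL-60 call with DMSO was lost (−0.28).

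On day 2 and day 4 of differentiation with DMSO plus Nutridoma, PLB-985 cells had 1 library each, and no test was made. Of the 56 tested genes, 48 had both day-6 levels below both undifferentiated levels, a count that was not made over all tested rows. On day 2, 9 of these 48 were already at or below the day-6 range, 37 were between, and 2 were still within the undifferentiated range. Measured as a share of the fall between undifferentiated and day-6 means, the median gene had gone 82.8% of the way on day 2 and 97.5% on day 4. The sum over all 60 genes was 12951 and 12857 normalized FPKM undifferentiated, 7569 on day 2, 6139 on day 4 and 6121 and 5941 on day 6.

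SNRPA was at 252 and 259 normalized FPKM undifferentiated, 74.7 on day 2, 61.2 on day 4 and 62.0 and 51.1 on day 6. SNRPD1 was at 441 and 304 undifferentiated, 102 on day 2, 86.2 on day 4 and 91.0 and 65.6 on day 6. Both had thus gone 90.9% and 92.1% of the way on day 2. SRSF3 was slower, with 258 and 292 undifferentiated, 165 on day 2, 115 on day 4 and 93.2 and 114 on day 6, or 64.1% of the way on day 2. HNRNPLL had not begun to fall, with 17.4 and 19.8 undifferentiated, 18.9 on day 2, 20.7 on day 4 and 12.9 and 10.99 on day 6. HNRNPDL was lowest on day 4, with 211 and 296 undifferentiated, 119 on day 2, 57.3 on day 4 and 92.8 and 131 on day 6. HNRNPH2 was above its undifferentiated levels throughout, at 27.8 and 32.9 undifferentiated, 41.5 on day 2, 37.4 on day 4 and 41.5 and 46.9 on day 6. The sum over pseudogene names was 145 normalized FPKM on day 2, near the 102 of replicate 2 on day 6, and 323 on day 4, near the 291 of replicate 1. The part of the replicate set in the steps between these days was not tested.

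**Figure D4:**
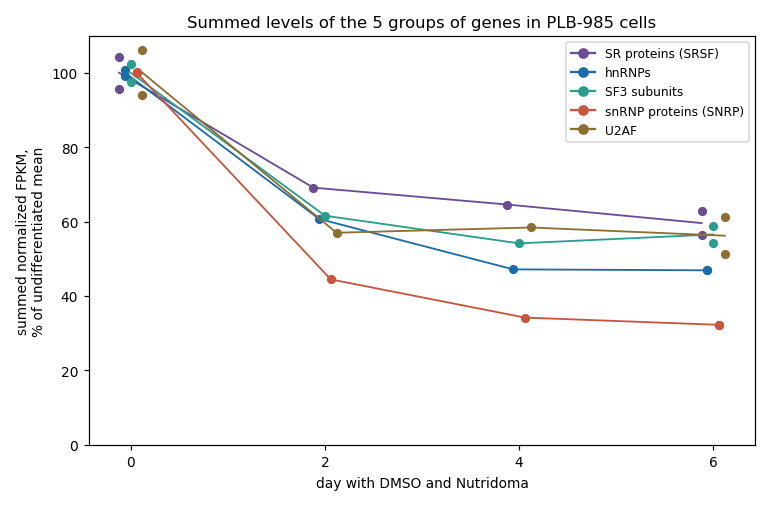
Summed normalized FPKM of each family in PLB-985 cells undifferentiated (day 0) and after 2, 4 and 6 days with DMSO plus Nutridoma, as a percentage of the undifferentiated mean. Points are libraries (2 on days 0 and 6, 1 on days 2 and 4) and lines join the means; snRNP proteins were at 44.5% on day 2 and 32.2% on day 6, SR proteins at 69.1% and 59.6%.

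Between the protocols, no gene passed in PLB-985 cells with DMSO plus Nutridoma against DMSO alone, where 1.05% of all tested rows did. There 3 of the 56 genes, and 1805 of the 13778 tested rows, had an unadjusted p under 0.05 (limma). In HL-60 cells 8 of 56 passed, against 16.5% of all rows, and over both lines together 8 passed, against 15.5% of all rows, so that neither share exceeds the background. Of those 8, 5 were higher and 3 lower in each case, but on the FPKM as deposited HL-60 cells had 1 higher and 3 lower, and both lines together 1 higher and 4 lower. The share of all called rows that were higher was then 43.4% in HL-60 cells and 53.3% over both lines, against 59.9% and 61.2% with the authors' scaling. A difference between the lines in this effect passed for 0 genes, against 0.515% of all rows. For this difference 5 of the 56 genes, and 1801 of the 13778 tested rows, had an unadjusted p under 0.05 (limma). Without the replicate block, 1 gene passed in HL-60 cells and 1 over both lines. In HL-60 cells the count was 13 without either undifferentiated HL-60 library, 8 without replicate 1 with DMSO plus Nutridoma and 1 without its replicate 2, 2 and 0 without replicates 1 and 2 with DMSO, and 3 or 4 without any PLB-985 library. Over both lines it was 11 without either undifferentiated HL-60 library, 7 without either undifferentiated PLB-985 library, 8 and 5 without replicates 1 and 2 of HL-60 cells with DMSO plus Nutridoma, and between 1 and 3 without any library of the other 3 groups.

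Of the genes that passed in HL-60 cells, HNRNPUL1, a relative of HNRNPU, was at 95.2 and 88.6 normalized FPKM with DMSO plus Nutridoma, against 130.2 and 126 with DMSO (log2 fold change −0.47, SE 0.09, limma adjusted p = 0.014). SF3A2 was lower as well, at the levels given above (−0.77, adjusted p = 0.01), and so was HNRNPLL (−0.49, adjusted p = 0.048). HNRNPDL, a relative of HNRNPD, was at 117 and 122 normalized FPKM in HL-60 cells with DMSO plus Nutridoma, against 70.8 and 93.4 with DMSO, and in PLB-985 cells at 92.8 and 131, against 70.8 and 90.0. It was higher in HL-60 cells (0.55, SE 0.15, adjusted p = 0.045) and over both lines (0.50, SE 0.11, adjusted p = 0.019). SNRPA1 (0.56, adjusted p = 0.027), HNRNPA3 (0.51, adjusted p = 0.015), SF3A3 (0.38, adjusted p = 0.044) and SRSF3 (0.32, adjusted p = 0.047) were also higher with DMSO plus Nutridoma in HL-60 cells. Groups did not overlap for these 8 genes, with the exception of SF3A3. Over all 56 genes, these HL-60 groups were apart for 7 that were lower and 19 that were higher. All tested rows were not counted in this way. NFE2L2, which overlaps HNRNPA3 on the other strand, was at 53.0 and 144 normalized FPKM in HL-60 cells with DMSO plus Nutridoma, against 36.7 and 33.7 with DMSO, and its part in the change of HNRNPA3 was not tested. TGFB1, which overlaps HNRNPUL1 on the other strand, was at 129.9 and 208 normalized FPKM in HL-60 cells with DMSO plus Nutridoma, against 162 and 150.4 with DMSO, and its part was not tested either. SRSF3, SNRPA1, HNRNPDL and SF3A3 lost their calls on the FPKM as deposited. None of the 8 calls in HL-60 cells held under every alternative of the processing.

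Over both lines, SRSF7 (log2 fold change 0.33, SE 0.08, limma adjusted p = 0.03) and HNRNPR (0.26, SE 0.07, adjusted p = 0.047), a relative of SYNCRIP, passed in addition to HNRNPDL, SNRPA1, HNRNPA3, SF3A2, HNRNPUL1 and HNRNPLL. HNRNPR was at 90.6 and 98.7 normalized FPKM in DMSO-treated PLB-985 cells plus Nutridoma, against 81.2 and 85.6 with DMSO, and in HL-60 cells at 94.4 and 111, against 80.6 and 81.2. HNRNPUL1 in PLB-985 cells was at 112 and 115 with DMSO plus Nutridoma, against 125 and 120.1 with DMSO. For SRSF7, HNRNPR, HNRNPUL1, HNRNPDL, SNRPA1 and HNRNPLL, the groups were apart in both lines, and for HNRNPA3 and SF3A2 they overlapped in PLB-985 cells. Over all 56 genes, the PLB-985 groups were apart for 12 that were lower and 6 that were higher, and all tested rows were not counted. None of the 8 calls over both lines held under every alternative of the processing.

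Between the lines, 4 of the 56 genes differed in undifferentiated cells, against 14.1% of all tested rows, 4 with DMSO, against 10.4%, and 10 with DMSO plus Nutridoma, against 23.9%. Of those 10, 6 were higher and 4 lower in PLB-985 cells, and on the FPKM as deposited 6 were higher and 1 lower, where 63.5% of all called rows were higher, against 46.7% with the authors' scaling. SNRPN passed in all 3 states. SF3B3 was higher in undifferentiated PLB-985 than in HL-60 cells (log2 fold change 0.60, SE 0.14, limma adjusted p = 0.026), and SF3B4 was higher in PLB-985 cells with DMSO (0.82, SE 0.10, adjusted p = 0.002) and with DMSO plus Nutridoma (0.57, adjusted p = 0.0055). SRSF11 was higher in PLB-985 cells with DMSO (0.49, SE 0.11, adjusted p = 0.03) and with DMSO plus Nutridoma (0.45, adjusted p = 0.024). HNRNPA0, a gene without introns, was at 5.48 and 4.87 normalized FPKM in DMSO-treated PLB-985 cells, against 7.19 and 7.44 in HL-60 cells, at 5.02 and 5.41, against 6.61 and 7.79, with DMSO plus Nutridoma, and at 11.6 and 11.6, against 17.1 and 17.0004, undifferentiated. It was below HL-60 in all 3 states and passed in undifferentiated cells (−0.52, SE 0.12, adjusted p = 0.026) and with DMSO plus Nutridoma (−0.40, adjusted p = 0.049). HNRNPAB was lower in PLB-985 cells when undifferentiated (−0.52, adjusted p = 0.049) and with DMSO plus Nutridoma (−0.52, adjusted p = 0.036), and HNRNPA3 with DMSO (−0.44, adjusted p = 0.026) and with DMSO plus Nutridoma (−0.78, adjusted p = 0.0016). SF3A2, HNRNPUL1 and HNRNPF were higher and SRSF6 lower in PLB-985 cells with DMSO plus Nutridoma only, by log2 values of 0.62, 0.31, 0.38 and −0.38.

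Without the replicate block these counts were 2 undifferentiated, 2 with DMSO and 3 with DMSO plus Nutridoma. In undifferentiated cells, 1 gene passed without either undifferentiated PLB-985 library and 2 without either HL-60 library with DMSO or without replicate 2 of PLB-985 cells with DMSO plus Nutridoma. With DMSO, 7 passed without either HL-60 library with DMSO plus Nutridoma and 2 without any PLB-985 library or either HL-60 library with DMSO. With DMSO plus Nutridoma, 2 and 3 passed without replicates 1 and 2 of PLB-985 cells in that state, 4 without replicate 2 of HL-60 cells in it, and 6 without either undifferentiated PLB-985 library or either HL-60 library with DMSO. A line difference in the DMSO response passed for 0 of the 56 genes, against 1.31% of all tested rows. In this comparison 5 of the 56 genes, and 1688 of the 13778 tested rows, had an unadjusted p under 0.05 (limma). Of these 5 genes, SRSF2 had the lowest, with a log2 difference of 0.51 (SE 0.13).

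Other splicing genes outside these families were described by counts in 7 lists with 108 tested genes. With DMSO, 63 of the 108 were lower and 16 higher in PLB-985 cells, against 35.8% and 24.6% of all tested rows, and 69 lower and 17 higher in HL-60 cells, against 34.7% and 26%. With DMSO plus Nutridoma, 69 were lower and 11 higher in PLB-985 cells, against 35.8% and 24% of all rows, and 66 lower and 8 higher in HL-60 cells, against 33.6% and 25.5%. The medians of the log2 fold change were −0.63, −0.58, −0.63 and −0.52 in that order, between those of the 56 genes and those of all rows.

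The genes for snRNP assembly came nearest to the snRNP proteins themselves, with 16, 15, 15 and 16 of 16 lower in the same order and none higher. Of all tested rows, 35.8%, 34.7%, 35.8% and 33.6% were lower. PRMT5, the methyltransferase that modifies Sm proteins before they are loaded onto RNA, was at 41.8 and 32.0 normalized FPKM in DMSO-treated PLB-985 cells and 44.9 and 42.3 with DMSO plus Nutridoma, against 280.2 and 202 undifferentiated. PRMT5 in HL-60 cells was at 38.5 and 38.6 with DMSO and 51.7 and 47.5 with DMSO plus Nutridoma, against 226 and 225 undifferentiated. PRMT5 had a mean log2 fold change of −2.44, and GEMIN4, a protein of the SMN complex, one of −1.81. Of 10 LSM proteins, which ring the U6 RNA or guide mRNA decay, 8 were lower in every comparison, where 33.6% to 35.8% of all rows were. LSM7 (mean −1.78) and LSM5 (−1.59) were lowest, while LSM10, a subunit of the U7 particle for histone mRNA, rose (mean 0.68). The rise was not shared by LSM11 of the same list, which was lower in all 4 comparisons (mean −1.22). Among the 5 genes of the exon junction complex 4 were lower in each comparison, against the same shares of all rows, MAGOHB (−2.23) and MAGOH (−1.36) most.

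The SR protein kinases, which phosphorylate SR proteins, mostly went the other way. Of 7 such genes, 6 were higher with DMSO in each line, against 24.6% of all rows for PLB-985 and 26% for HL-60. With DMSO plus Nutridoma, 5 were higher in PLB-985 cells, against 24% of all rows, and 3 in HL-60 cells, against 25.5%. The count of 3 is thus not far above the background. SRPK1 was lower in all 4 comparisons. CLK1, the best known of the CLK kinases, was at 36.0 and 47.5 normalized FPKM in DMSO-treated PLB-985 cells and 20.6 and 33.7 with DMSO plus Nutridoma, against 9.87 and 22.6 undifferentiated. CLK1 in HL-60 cells was at 32.7 and 38.0 with DMSO and 19.5 and 37.6 with DMSO plus Nutridoma, against 10.01 and 13.1 undifferentiated. Replicate 2 was the higher in each group, and only PLB-985 cells with DMSO plus Nutridoma overlapped with the undifferentiated ones (mean log2 fold change 1.22). SRPK2 had a mean of 0.82.

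The remaining lists were mixed. Of 19 proteins of the U1, U4/U6 and U5 particles and of the minor U11/U12 particle, 12 to 14 were lower, against 33.6% to 35.8% of all rows. SNRNP40 (−1.31), a U5 protein, and SNRNP25 (−1.29), a U11/U12 protein, fell most. Of 21 genes of the PRP19 complex and the catalytic steps, 8 to 11 were lower and 1 to 6 higher, where 33.6% to 35.8% of all rows were lower and 24% to 26% higher, so that the lowest of these counts lie near the background. Among them were PRPF19, the complex's ubiquitin ligase, at a mean of −1.70, and SYF2 at 0.40. Of 30 other regulators, 14 to 18 were lower and 2 to 5 higher, against the same shares of all rows. A count of 14 lower is thus not far above the background, and the counts of higher genes lie below it. PTBP1, the polypyrimidine tract binding protein, had the lowest mean (−1.72), followed by SYNCRIP (−1.37), and MBNL1 (0.57) and QKI (0.51), regulators known from muscle and glial cells, were higher in all 4 comparisons.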

How the data were processed

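RNA of 14 cultures was sequenced. Reads were mapped by the authors with STAR 2.4 to GRCh38.p5, and FPKM per gene from Cufflinks 2.2.1 were deposited (tools and build from the submitters' processing notes). A second deposited table holds the log10 of FPKM that the authors had scaled between libraries on genes of middling, even expression, with −4 in place of 0. Within each library both tables differed by 1 factor (0.596 to 0.804, largest deviation 2.2e-06). The deposited tables give no counts, so the depth of each library cannot be read from them and no counting interval is given. Library strand is not given in the sources used here, so reads of overlapping genes on opposite strands may not have been told apart, and 36 of the 60 genes overlap another, 13 of them one with at least 10 FPKM. No column was left unused.

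The log10 values were turned back to normalized FPKM, rows with at least 1 in 2 or more of the 12 libraries were kept (13778), and log2(normalized FPKM + 1) was fitted with limma 3.58.1 in R 4.3.3, with 6 groups, the replicate number as a block and a variance trend (residual df 5). Fold changes on this scale understate the change of low genes. P-values were adjusted by Benjamini-Hochberg over all rows in each of 12 comparisons, with a threshold of 0.05. The study repeated the experiment on 2 independent days and the labels number the replicates. Same-numbered libraries deviated together in all 15 pairs of groups (r between 0.65 and 0.85), so the block was kept. P-values measure the spread between these cultures. Tested on simulated data for PLB-985 cells with DMSO against undifferentiated cells (5 simulations, 13778 genes), the fit recovered 50 to 69 of 100 genes changed by 1 on the log2 scale and 87 to 92 of 100 changed by 2. No other genes were changed in these simulations, while 4928 rows were lower and 3392 higher in the real comparison. The adjustment of p-values depends on that number, so the recovered shares cannot be carried over to the real data.

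Values in every library were given for the 2 genes of each family with the largest mean fall and the 2 with the smallest or a rise, both U2AF genes, genes past the threshold between protocols or lines (the 5 largest where more than 8 passed), genes with a median of 20 FPKM or more listed at 0 in any library, and the 3 with the highest mean level. In each list of other splicing genes up to 2 falls and 2 rises were named, and LSM11 in addition. SNRPF, LSM11, the levels of HNRNPCL1, and the per-library values of PRMT5 and CLK1, were added after their values were seen. The families, the lists of other splicing genes and the motifs were chosen with earlier results of these data known. Gene positions are from GENCODE 44 (GRCh38), promoter sequences from RefSeq (GRCh38.p14). The alternatives were the FPKM as deposited, median-of-ratios scaling, added constants of 0.1 and 0.5, no filter, a filter of 5, no variance trend, rows listed at 0 left out, no replicate block and each library left out.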

Additional observations from a re-analysis of the deposited data

Results flagged for a closer look

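The difference between the lines in this response was not tested, and 2 genes are given because both replicates of one line moved one way and both of the other line the opposite way. SRSF4 differed between DMSO plus Nutridoma and undifferentiated cells by 0.0993 and 0.0182 on the log2 scale in replicates 1 and 2 of PLB-985 cells and by −0.0322 and −0.6691 in those of HL-60 cells. SRSF5 differed by −0.0689 and −0.1265 in PLB-985 cells and by 0.2031 and 0.6988 in HL-60 cells. Neither gene passed in either line on the authors' scaling. The fitted value of SRSF5 in PLB-985 cells, −0.10, turned to 0.10 on the FPKM as deposited and 0.03 under median-of-ratios scaling, so that its fitted signs were not opposite under these scalings, and in HL-60 cells SRSF5 passed as higher under both (0.51 and 0.57).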

How the results depend on the processing

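Of 224 results of single genes past the threshold, 166 stayed past it under every alternative and none reversed. None of the 8 calls between the protocols in HL-60 cells, and none of the 8 over both lines, did so. Between the lines, 1 of 4 calls did so undifferentiated, 2 of 4 with DMSO and 2 of 10 with DMSO plus Nutridoma. With each library left out in turn, the genes lower than in undifferentiated cells numbered 39 to 44 for PLB-985 and 44 to 47 for HL-60 cells with DMSO, and 41 to 46 and 45 to 48 with DMSO plus Nutridoma, and the higher ones 0 to 2, 1 to 2, 1 to 1 and 1 to 2. Between DMSO plus Nutridoma and DMSO the ranges were 0 to 0 in PLB-985 cells, 0 to 13 in HL-60 cells and 1 to 11 over both lines. Between PLB-985 and HL-60 cells they were 2 to 7 with DMSO, 2 to 10 with DMSO plus Nutridoma and 1 to 5 undifferentiated, and 0 to 0 for both differences between the lines. Without the replicate block, 39, 45, 44 and 43 genes were lower in the order of the first ranges, and 0, 0, 1 and 1 higher. The same fit without the block called 1 gene between the protocols in HL-60 cells and 1 over both lines, and between the lines 2 with DMSO, 3 with DMSO plus Nutridoma and 2 undifferentiated. On the FPKM as deposited, 2 genes were higher for PLB-985 and 3 for HL-60 with DMSO plus Nutridoma, as under median-of-ratios scaling, and between the protocols 4 genes passed in HL-60 cells and 5 over both lines. Without a filter 1 gene was higher in PLB-985 cells with DMSO, and between the protocols 4 passed in HL-60 cells and 4 over both lines. Without a variance trend 4 passed between the protocols in HL-60 cells. Undifferentiated PLB-985 and HL-60 cells differed in 2 genes under median-of-ratios scaling and in 2 without a filter. The cause of these shifts was not tested. With 2 replicates a group, small changes of low genes could not be told from no change.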
